A study of Mus musculus with 4 samples.

Results

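The pancreas was compared at 6 weeks and at 2 days of recovery from caerulein, an analogue of cholecystokinin that over-stimulates the acinar cells and causes acute pancreatitis.
The comparison covers every barcode with at least 500 UMIs (unique molecular identifiers, each counting 1 captured RNA molecule), at least 200 detected genes and at most 20% of its UMIs from mitochondrial genes in the library of each time point.
These were 4656 cells at 2 days and 2773 at 6 weeks, 7429 of the 12807 cells that passed the same rule in the whole series.
All mice were wild-type C57BL/6, and each condition was 1 library: caerulein or saline, each with 2 days or 6 weeks of recovery, with the contexts Pancreatitis and Inflammation-naïve in the labels.
DAPI-negative (membrane-intact) cells had been sorted from dissociated pancreata and run on a droplet assay that reads the 3′ end of polyadenylated RNA.
The labels used here give neither the number of mice behind a library nor their age, nor the dose and schedule of caerulein.
With 1 library a side nothing could be tested: intervals below are exact 95% intervals that cover counting error only, and animal, dissociation and library cannot be told apart from the time point.

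Acute caerulein pancreatitis is known to cause oedema, leukocyte entry and a reversible loss of secretory features in acinar cells, which take on keratins and other duct-like genes (acinar-to-ductal metaplasia).
In the mouse the injury is usually cleared: macrophages take up debris, activated fibroblasts lay down collagen and later withdraw, and acinar cells regain their zymogens.
The comparison asks which of these programmes differed between the acute and the late time point, with the saline libraries as the level of an uninjured gland.

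The rule removed 777 of 5433 barcodes at 2 days and 1422 of 4195 at 6 weeks after caerulein.
Near the mitochondrial limit, 26 and 26 barcodes lay between 18 and 20% and 31 and 23 between 20 and 22%.
Median depth was 14061 UMIs per cell at 2 days, 10562 at 6 weeks, and 8339 and 10346 in the saline libraries.
The libraries of the comparison shared 7 barcode sequences.
T-like and B-like cells, which make no digestive enzymes, held on average 51.9 digestive-enzyme UMIs per cell at 2 days and 96.6 at 6 weeks. The medians were 17 and 79. The mean was taken as a measure of free RNA in the droplets.
Digestive-enzyme genes were therefore compared in acinar-like cells alone.
Clusters were called macrophage-like, fibroblast-like and so on from stated marker genes, and the name says no more than that those markers led.

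Macrophage-like cells were the largest class of the acute library and a small one of the late library.
They were 47.6% of cells at 2 days (95% Clopper-Pearson interval 46.2 to 49.1%; 2218 cells) and 3.53% at 6 weeks (2.88 to 4.29%; 98 cells), a ratio of 13.5.
The saline libraries held 2.21% and 6.30%, so the 6-week value lay between them.
Conventional dendritic-like cells, which present antigen to T cells, were 10.6% at 2 days and 2.27% at 6 weeks, with 2.30% and 1.53% after saline.
All immune classes together made up 63.4% of cells at 2 days and 24.1% at 6 weeks, with 39.9% and 19.4% after saline.
Lymphocytes took a larger share of the late library.
B-like cells were 0.365% at 2 days (17 cells) and 8.44% at 6 weeks (234 cells), with 22.8% and 6.10% after saline.
T-like cells were 2.13% and 5.23% (saline 5.59% and 2.85%).
Antibody-secreting plasma-like cells were 0.0859% and 0.974% (saline 3.08% and 0.492%).
The saline libraries themselves differed 3.73-fold in B-like cells.
Natural killer-like cells (1.18% and 1.41%) and neutrophil-like cells (0.623% and 0.613%) had overlapping intervals at the 2 times.

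Among the non-immune classes, fibroblast-like cells were 12.7% of cells at 2 days and 40.4% at 6 weeks, with 20.6% and 36.8% after saline.
Ductal-like cells were 3.80% and 20.3% (saline 23.5% and 11%), and acinar-like cells 7.5% and 12.7% (saline 12.4% and 21.7%).
The late library lay within the saline range for ductal-like and acinar-like cells and above it for fibroblast-like cells.
Blood endothelial-like cells were 2.34% and 0.577% (saline 1.49% and 7.09%), a smaller share at 6 weeks.
A further cluster raised acinar and duct markers alike and could be given neither name, and it is called the mixed acinar and duct cluster here.
Whether its cells are acinar cells in metaplasia or cells of low quality was not tested; at 2 days they had a median of 7582 UMIs and 1452 detected genes, against 9516 and 996 in acinar-like cells.
It held 423 cells at 2 days (9.09%) and 15 at 6 weeks (0.541%), against 0.538% and 0.492% after saline.
With the caerulein libraries clustered alone, the macrophage-like share at 6 weeks was 0.757%, the ductal-like share at 2 days 9.34%, and no cluster was named B-like, so these shares depend on the clustering.
Shares sum to a whole, so a large class lowers all others.
Among non-immune cells alone, fibroblast-like cells were 34.6% at 2 days and 53.2% at 6 weeks, and acinar-like cells 20.5% and 16.7%.
The denominator thus turned the order of the acinar-like shares and kept that of the fibroblast-like shares.
Sorting and dissociation set which cells enter a library, and shares of sorted cells are not shares of the gland.

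**Figure D1:**
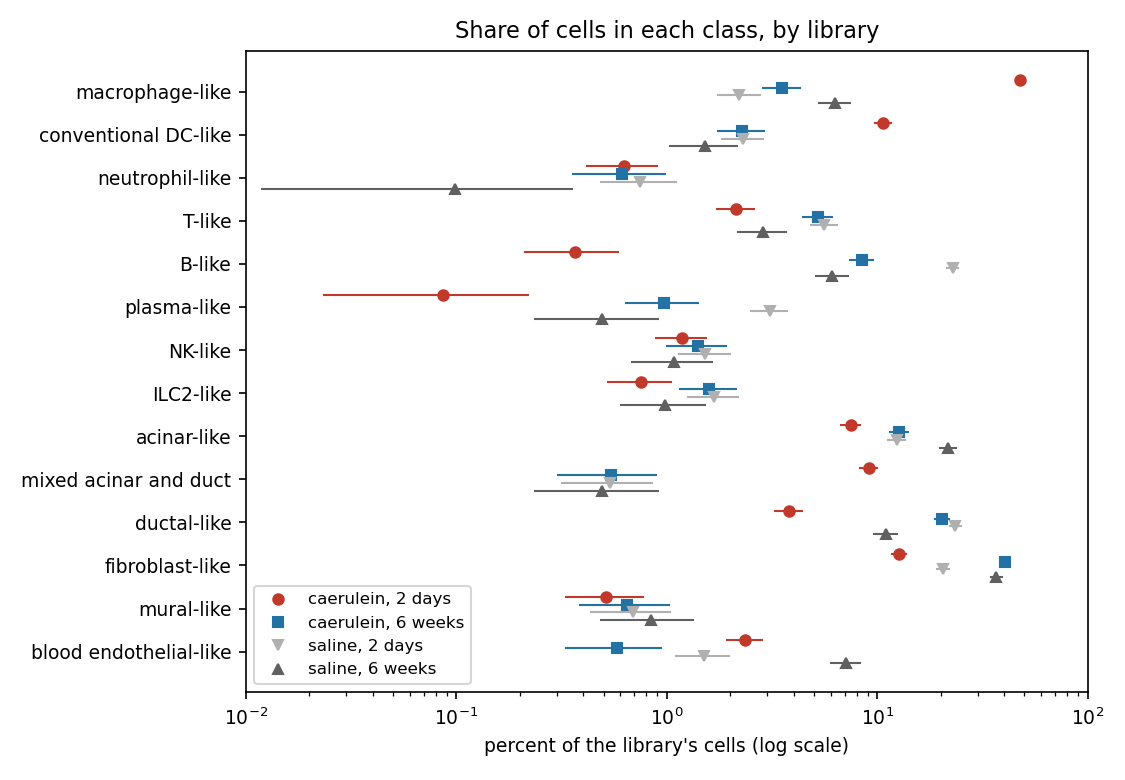
Share of each class among the cells of each library, in percent on a log axis; points are the 4 libraries and lines are exact 95% Clopper-Pearson intervals. Macrophage-like cells stood at 47.6% 2 days after caerulein and at 2.21 to 6.30% in the other 3 libraries, and B-like cells were lowest at 2 days after caerulein (0.365%).

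Expression was compared within 6 classes that held at least 50 cells in both libraries: acinar-like, ductal-like, fibroblast-like, macrophage-like, conventional dendritic-like and T-like.
Levels are CPM (UMI counts-per-million): all UMIs of a gene in the class, divided by the class total, which was adjusted by TMM (trimmed mean of M values) with the 2-day library as reference. A gene was counted when its level differed at least 2-fold and it had 100 or more UMIs over both libraries.
The log2 ratio is 6 weeks over 2 days after caerulein throughout, so a negative value is a level that was lower at 6 weeks.
Saline at 6 weeks against saline at 2 days, by the same rule, gave the background.
In acinar-like cells 20.6% of 1813 genes were at least 2-fold lower and 8.44% at least 2-fold higher at 6 weeks, against 2.03% in either direction between the saline libraries.
Ductal-like cells had 5.06% lower and 4.87% higher of 8857 genes (saline 1.03%), and fibroblast-like cells 7.89% and 5.7% of 10302 (saline 1.2%).
Macrophage-like cells had 14% lower and 6.6% higher of 9230 genes (saline 7.35%); of the 1292 lower genes, 1013 had a counting interval wholly below 0, and the 6-week class held 98 cells.
Conventional dendritic-like cells had 4.35% and 1.51% of 5638 genes, with too few cells at 6 weeks of saline for a background.
T-like cells had 2.16% lower and 1.8% higher of 2220 genes, against 2.92% in either direction between the saline libraries.

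On the genes measured in both comparisons, the share that differed at least 2-fold after caerulein was 26.1% in acinar-like, 8.11% in ductal-like, 11.1% in fibroblast-like, 14.7% in macrophage-like and 3.43% in T-like cells.
After saline it was 1.59%, 0.869%, 1.10%, 7.19% and 2.29% in the same order.
The caerulein share was above the saline share in all 5 classes, with the smallest gap in T-like cells.
Levels below are CPM on these adjusted totals unless another unit is named.

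**Figure D2:**
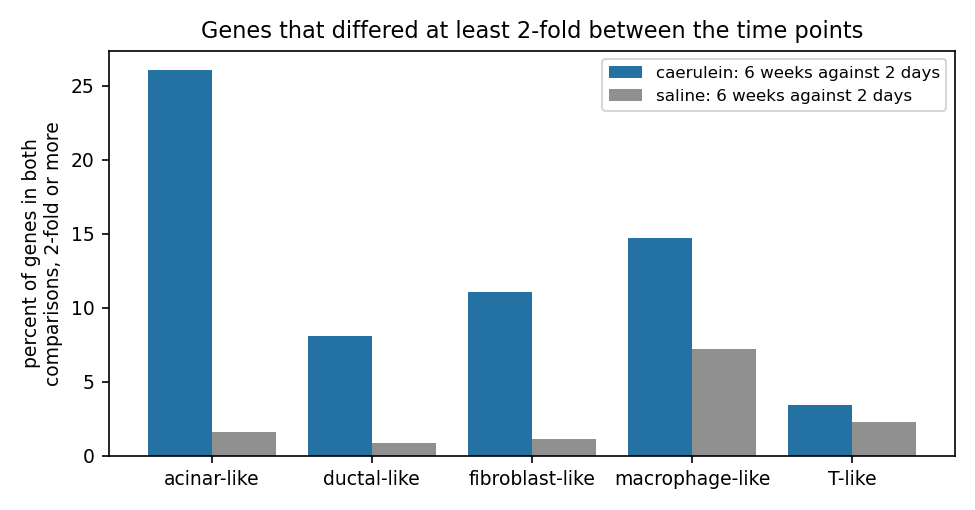
Percent of the genes measured in both comparisons whose level differed at least 2-fold between 6 weeks and 2 days, for caerulein (blue bars) and saline (grey bars), by class; each bar compares 1 library with 1 library. Acinar-like cells had 26.1% after caerulein and 1.59% after saline, T-like cells 3.43% and 2.29%.

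Digestive enzymes made up a larger part of the RNA of acinar-like cells at 6 weeks, and the Reg family a far smaller part. The Reg family is a group of secreted lectins made in quantity by the injured pancreas.
Reg3b, an antibacterial lectin and marker of pancreatitis, stood at 11482 CPM at 2 days and 49.7 at 6 weeks after caerulein, with 188 and 20.2 in the saline libraries (log2 ratio -7.85, interval -8.07 to -7.64).
The acute library alone was high.
Reg2 was 7954 at 2 days and 121 at 6 weeks (saline 289.5 and 93.7). Reg3g was 1132 at 2 days and 12.0 at 6 weeks (saline 23.6 and 4.01). Reg3a was 453 at 2 days and 6.42 at 6 weeks (saline 10.2 and 5.54).
The family's median log2 ratio was -6.09, with 0 higher and 6 lower of 6 measured; all genes compared had a median of -0.37.
Reg1 and Reg3d were the mildest, at -1.47 and -1.09.
Per cell, 99.7% of acinar-like cells had a Reg3b UMI at 2 days and 3.76% at 6 weeks once every cell was thinned to 1000 UMIs.
The same share in T-like and B-like cells, which should lack it, was 16.4% and 0%.
Unthinned, it was 100% and 8.52%.
Reg3b RNA was thus also found in 2-day cells that should lack it, and whether it came from free RNA or doublets was not tested. Reg3b was among the 5 lowest genes of every class compared except ductal-like cells, where it was 184 and 1.39 CPM.
Its levels outside acinar-like cells are not read as expression by those classes.

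Of the 38 digestive-enzyme genes measured, 29 were at least 2-fold higher at 6 weeks and 3 at least 2-fold lower, with a median of 1.78. Of all genes 8.44% were higher. The median share of enzyme UMIs in a cell was 58.0% at 2 days and 82.2% at 6 weeks (saline 86.8% and 84.7%). The median cell held 5186 enzyme UMIs at 2 days and 5465.5 at 6 weeks. The ratios thus describe parts of a total, and their size depends on the scaling.
Pnlip, the triglyceride lipase of pancreatic juice, was 2553 at 2 days and 56365 at 6 weeks (saline 84469.9 and 102902). The elastase Cela1 was 4214 at 2 days and 56071 at 6 weeks (saline 90194 and 100702).
Both were lowest in the acute library and remained below saline at 6 weeks.
Cpa1, a carboxypeptidase, was 10895 at 2 days and 36598 at 6 weeks (saline 67429 and 68583). The trypsinogen Prss2 was 23024 at 2 days and 55846 at 6 weeks (saline 97329 and 100623); the granule membrane glycoprotein Gp2 was 299 at 2 days and 3303 at 6 weeks (saline 4331 and 4656).
The lipase cofactor Clps was 17933 at 2 days and 61111 at 6 weeks (saline 51926 and 65488). The trypsin inhibitor Spink1 was 2525 at 2 days and 4048 at 6 weeks (saline 2679 and 3704).
At 6 weeks Clps was within the saline range and Spink1 above it.
The 3 lower members were trypsinogen-like genes.
For 1810009J06Rik the level was 1137 at 2 days and 50.3 at 6 weeks (saline 0 and 0.382).
Prss1 was 387 at 2 days and 58.1 at 6 weeks (saline 5.08 and 98.7). Gm5771 was 779.9 at 2 days and 204 at 6 weeks (saline 51.3 and 129).
Trypsinogens and the Amy2a amylases are near-identical copies that the counting may split, so their single values are uncertain.
Transcription factors of the acinar programme had a median of 0.14 (2 higher and 0 lower of 8 measured).
Ptf1a, which heads that programme, was 5.21 at 2 days and 20.9 at 6 weeks (saline 17.0 and 15.8), with 43 and 75 UMIs (log2 ratio 2.01, interval 1.45 to 2.58).
Bhlha15 (Mist1), a factor of the secretory machinery, was 25 at 2 days and 28.2 at 6 weeks (saline 35.8 and 29.0). Rbpjl, a partner of Ptf1a, was 65.4 at 2 days and 54.7 at 6 weeks (saline 66.8 and 59.6).
Ptf1a was lowest in the acute library, and the other two were near 1 level in all 4.

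The duct and metaplasia list of acinar-like cells had a median of -1.24 (4 higher and 10 lower of 19 measured, against 20.6% of all genes lower).
Clu, an extracellular chaperone, was 3459.8 at 2 days and 611 at 6 weeks (saline 806 and 773).
The simple keratin Krt18 was 493 at 2 days and 99.7 at 6 weeks (saline 116 and 106). Its partner Krt8 was 337 at 2 days and 83.5 at 6 weeks (saline 78.5 and 67.8).
The duct keratin Krt19 was 36.2 at 2 days and 15.4 at 6 weeks (saline 7.63 and 13.9).
These 4 were highest in the acute library, and at 6 weeks Clu and Krt18 were below both saline libraries.
Tff2, a trefoil peptide of mucus, was 440.5 at 2 days and 6129 at 6 weeks (saline 5516 and 6614), low in the acute library alone.
Sox9, the duct transcription factor, was 2.06 at 2 days and 7.54 at 6 weeks (saline 7.63 and 4.39) on 17 and 27 UMIs (log2 ratio 1.87, interval 0.94 to 2.84).
Of 16 feedback and output genes of MAPK signalling 6 reached 20 UMIs, too few for a count over the list, and the growth factor Hbegf among them was 9.09 and 1.68 CPM.
Among oxidative stress genes the metal-binding Mt2 was 142 at 2 days and 593 at 6 weeks (saline 253 and 573). The peroxidase Prdx1 was 92.3 at 2 days and 27.6 at 6 weeks (saline 30.5 and 30.2).
The stomach peptide gene Gkn3 had 453 UMIs at 2 days and none in the other 3 libraries, which made it at least 65.5-fold lower at 6 weeks.
Of 29 cell cycle genes 13 reached 20 UMIs, through the 2-day library where they were higher, so their count and median carry no weight (Stmn1 had 104 UMIs at 2 days and 7 at 6 weeks).
Mki67 or Top2a were in 1.15% of acinar-like cells at 2 days and 0.578% at 6 weeks at 1000 UMIs (3.44% and 0.852% unthinned), below their share in T-like and B-like cells (3.45% and 2.12%).

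The genes furthest above their 2-day level in acinar-like cells were partly B cell genes.
Ighm and Igkc, which encode immunoglobulin chains, were 0.969 and 57.2 and 3.03 and 123 CPM, while the summed level of 9 B cell markers was 1.45 and 64.2.
Macrophage markers went the other way (281 and 53.3 summed over 12 genes, 11 of them at least 2-fold lower), and the part of other cells' RNA was not tested.
The counts of acinar genes depended on the scaling: the median of all genes was -0.37 as given, -1.35 on unadjusted totals and 0.06 on totals without enzyme genes, and the counts of higher and lower genes were 153 and 374 as given, 48 and 1202 on unadjusted totals, and 265 and 161 without enzyme genes in the totals.
On unadjusted totals the medians of the transcription factor, ER folding, AP-1, cytokine and interferon lists were below 0 (transcription factors -0.84), while those of the enzymes, Reg family and metaplasia lists kept their sign in every alternative run.
All 349 acinar-like cells at 2 days lay in 1 cluster and 351 of 352 at 6 weeks in another.

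Of the 466 cells in the mixed acinar and duct cluster, 423 came from the acute library; its clustering used the genes below, so their values describe it.
Krt19 was found in 35.5% of its 2-day cells at 1000 UMIs, against 5.16% of the acinar-like cells and 1.72% of T-like and B-like cells of that library.
Reg3b was found in 78.5% and Clu in 95.1%, and the dividing-cell genes Mki67 or Top2a in 0.256%, below their share in T-like and B-like cells (3.45%).
At 6 weeks the cluster held 15 cells, too few to compare.
Pooled with the acinar-like cells, it gave 464 higher and 1127 lower of 5121 genes compared, in place of 153 and 374 of 1813. This pooling was chosen after seeing the data.

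Ductal-like cells, which line the channels and secrete bicarbonate and water, carried less RNA of cell cycle genes and of inflammatory mediators at 6 weeks.
The level of 27 of 29 cell cycle genes was at least 2-fold lower at 6 weeks (median -5.11), while 5.06% of all genes were.
Mki67, a marker of cycling cells, was 70.1 CPM at 2 days and 0.929 at 6 weeks after caerulein, with 0.546 and 1.16 in the saline libraries (log2 ratio -6.24, interval -7.70 to -5.10).
Cdk1, the kinase that drives entry into mitosis, was 66.9 at 2 days and 0.465 at 6 weeks (saline 1.37 and 0). Its partner Ccnb1 was 28.2 at 2 days and 0.155 at 6 weeks (saline 0.137 and 0). The topoisomerase Top2a was 58.8 at 2 days and 4.03 at 6 weeks (saline 3.14 and 1.16).
For all 4 genes the acute library was the only high one.
At 1000 UMIs per cell, 14 of 176 cells (7.95%, interval 4.42 to 13%) had Mki67 or Top2a at 2 days and 4 of 561 (0.713%) at 6 weeks, and unthinned 28.2% and 4.08%.
T-like and B-like cells, some of which divide themselves, held 3.45% and 2.12%.
Pcna (-0.08) and Hmgb2 (-0.88) were the 2 members under 2-fold.

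The upstream sequences of the 4 cell cycle genes with the largest ductal ratio among those with 1 listed start are shown because these genes moved together (RefSeq, build GRCm38.p6, the 250 bases before the start, 5′ to 3′ on the gene's strand): Ccnb1 chr13:100786487-100786736 (minus strand), Cdk1 chr10:69352913-69353162 (minus strand), Birc5 chr11:117848987-117849236 (plus strand), Mki67 chr7:135716380-135716629 (minus strand). Capitals mark the letters of the cell cycle homology region (TTTGAA or TTCGAA, either strand) and of the CCAAT box (CCAAT or ATTGG), which do not overlap in these 4 sequences.
Ccnb1: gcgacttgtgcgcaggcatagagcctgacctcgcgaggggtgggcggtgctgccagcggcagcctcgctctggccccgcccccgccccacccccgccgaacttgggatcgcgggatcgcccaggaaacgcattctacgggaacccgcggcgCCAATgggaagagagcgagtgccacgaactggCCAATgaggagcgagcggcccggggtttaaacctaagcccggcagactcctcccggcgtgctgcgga
Cdk1: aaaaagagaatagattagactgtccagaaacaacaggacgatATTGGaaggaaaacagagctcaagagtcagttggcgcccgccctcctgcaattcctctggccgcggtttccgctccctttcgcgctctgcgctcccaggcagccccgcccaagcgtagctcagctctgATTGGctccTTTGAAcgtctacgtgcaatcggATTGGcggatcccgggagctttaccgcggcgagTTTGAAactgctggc
Birc5: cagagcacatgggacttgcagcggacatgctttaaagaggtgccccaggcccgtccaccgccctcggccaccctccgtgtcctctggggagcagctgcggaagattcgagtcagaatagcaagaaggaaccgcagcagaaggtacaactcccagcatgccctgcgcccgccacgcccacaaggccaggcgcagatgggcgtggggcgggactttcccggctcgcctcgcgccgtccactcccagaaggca
Mki67: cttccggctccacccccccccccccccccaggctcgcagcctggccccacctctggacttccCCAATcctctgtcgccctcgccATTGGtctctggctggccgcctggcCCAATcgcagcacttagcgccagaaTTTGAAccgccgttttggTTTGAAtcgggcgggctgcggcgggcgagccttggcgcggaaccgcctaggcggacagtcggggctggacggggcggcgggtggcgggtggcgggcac
Of the 29 list genes, 24 had a promoter in the table. The CCAAT letters were in 20 of them and in 37.5% of all genes (33.8% of 32851 promoters), and the homology region letters in 9 and in 19.6% of all genes (17.1% of promoters). A match is only a match of letters, and Birc5 had neither within this window.

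**Figure D3:**
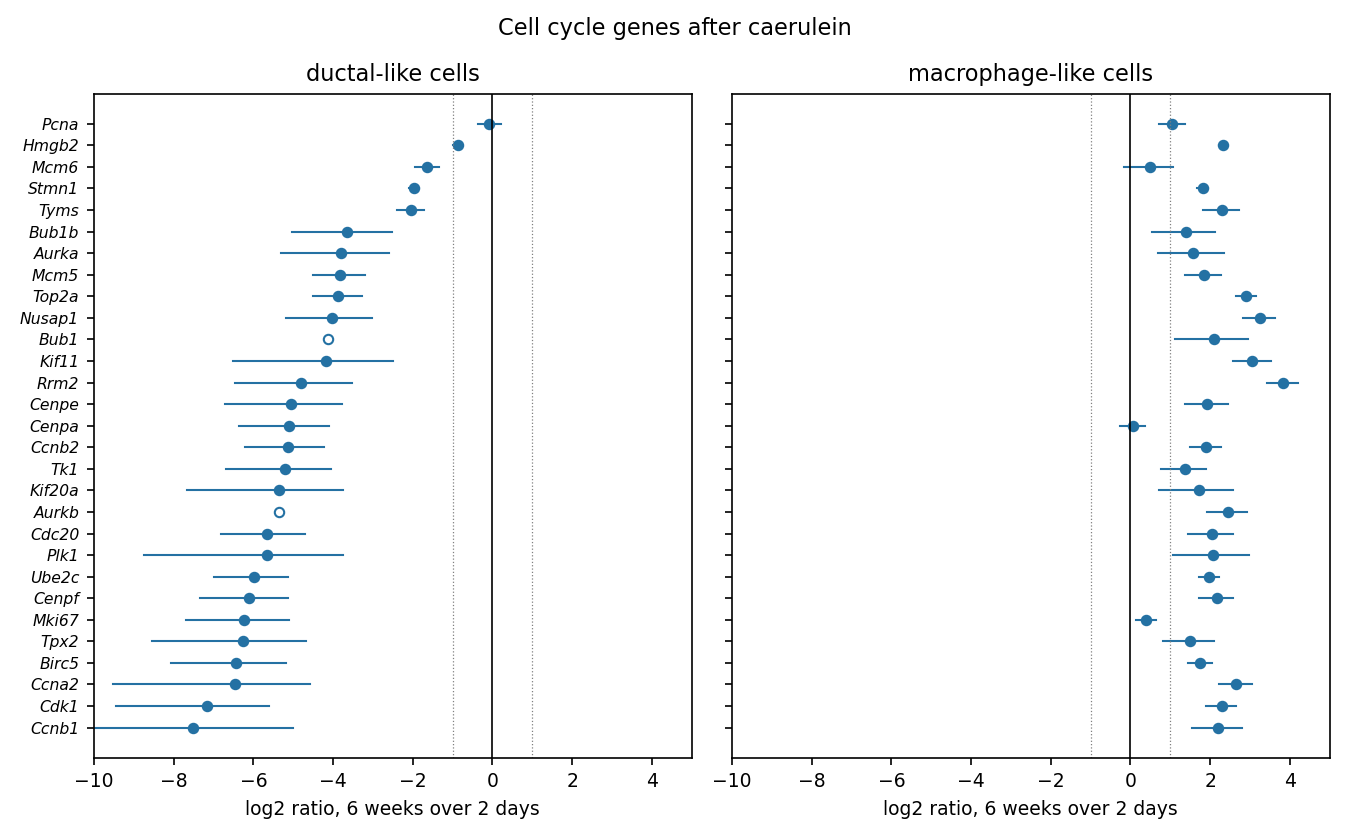
Log2 ratio (6 weeks over 2 days after caerulein) of the 29 cell cycle genes in ductal-like and macrophage-like cells; lines are exact 95% counting intervals, open circles mark genes with 0 UMIs at 6 weeks (bounds), and dotted lines mark 2-fold. In ductal-like cells 27 genes lay at or below -1, and in macrophage-like cells 26 lay at or above 1. Among all genes these shares were 5.06% and 6.6%. Without a dividing and a shallow cluster the macrophage median was 0.18, and at Leiden resolution 0.5 it was -0.33.

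Of 23 measured NF-kB targets and cytokines, 18 were at least 2-fold lower at 6 weeks in ductal-like cells and 1 higher (median -2.30). Of all genes 5.06% were lower.
Lcn2, a protein that withholds iron from bacteria, was 4831 CPM at 2 days and 157 at 6 weeks after caerulein, with 169 and 175 in the saline libraries (log2 ratio -4.94, interval -5.03 to -4.85).
Complement C3 was 953 at 2 days and 67.2 at 6 weeks (saline 46.3 and 35.6). The interleukin-1 antagonist Il1rn was 301 at 2 days and 4.80 at 6 weeks (saline 1.23 and 2.32). The neutrophil-attracting chemokine Cxcl5 was 41.4 at 2 days and 0.155 at 6 weeks (saline 0 and 0).
The acute library was the only one with high values of these.
At 1000 UMIs, 92.0% of ductal-like cells had an Lcn2 UMI at 2 days and 9.63% at 6 weeks, with 0% and 0.265% in T-like and B-like cells.
Il1rn was in 21.0% and 0% (0 of 561 cells, interval up to 0.655%).
Icam1, an adhesion receptor for leukocytes, was 389 at 2 days and 466 at 6 weeks (saline 307 and 287). Nfkbia, the inhibitor of NF-kB, was 944 at 2 days and 883 at 6 weeks (saline 1195 and 866), both within 2-fold.
Il1b, a macrophage and neutrophil cytokine, was 82.3 and 0.619, and 9 of 12 macrophage markers were at least 2-fold lower in ductal-like cells at 6 weeks.
The summed level of the 12 was nonetheless higher at 6 weeks (2978 and 9425 CPM), with Apoe, the 1 marker at least 2-fold higher, at 9263 and 60591 UMIs.
The part of macrophage RNA in the low ratios of Il1b, Ccl3 and Ccl4 was not tested.

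Interferon response genes of ductal-like cells had a median of 0.74 and 8 higher and 0 lower of 20 measured (background 4.87% of genes higher). Their median level was 7.96 CPM at 2 days and 15.7 at 6 weeks (saline 15.2 and 7.94). The saline libraries thus differed as well, with the 6-week one as low as the acute library.
Irf1, a transcription factor of that response, was 127 at 2 days and 434 at 6 weeks (saline 381 and 326). The ubiquitin-like Isg15 was 25.2 at 2 days and 79.9 at 6 weeks (saline 51.4 and 39.5).
The antiviral Ifit3 was 1.23 at 2 days and 10.1 at 6 weeks (saline 7.78 and 1.16) on 5 and 65 UMIs.
Duct transport genes had a median of -0.75 (0 higher and 4 lower of 11 measured, against 5.06% of all genes lower).
The chloride channel Cftr was 35.8 at 2 days and 52.8 at 6 weeks (saline 96.8 and 69.7). Carbonic anhydrase Car2 was 160.0 at 2 days and 95.1 at 6 weeks (saline 83.6 and 81.0). The hypoxia-inducible Car9 was 33.6 at 2 days and 3.25 at 6 weeks (saline 1.78 and 1.16).
Sox9 was 486 at 2 days and 551 at 6 weeks (saline 535 and 497). The secreted phosphoprotein Spp1 was 26104 at 2 days and 18928 at 6 weeks (saline 16439 and 16759), both within 2-fold (log2 ratios 0.18 and -0.46).
The squamous envelope gene Sprr1a was 379 at 2 days and 0.310 at 6 weeks (saline 5.46 and 0). The matrix protease Mmp7 was 751 at 2 days and 35.0 at 6 weeks (saline 18.4 and 23.6).
Both were highest in the acute library by a wide margin.
Vegfa, the main angiogenic growth factor, was 51.1 at 2 days and 196 at 6 weeks (saline 171 and 191) on unadjusted totals.
Of the 5 genes furthest above their acute level, Clec3b, Smoc2, Ccl11 and Dcn are fibroblast genes.
Dcn was 8.58 at 2 days and 247 at 6 weeks (saline 60.4 and 248), and 11 of 12 fibroblast markers were at least 2-fold higher (118 and 747 summed, saline 203 and 888).
With the highest doublet scores left out, Dcn's log2 ratio was 1.47 in place of 4.85.
Pgc, a stomach pepsinogen, had 0 UMIs at 2 days and 347 at 6 weeks, at least 73.1-fold higher, with 0.273 and 0 CPM in the saline libraries.
Most 2-day cells (164 of 177) lay in 1 cluster, and the 6-week cells in 2 others (329 and 227 of 564).

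Fibroblast-like cells, which make the collagen scaffold of the gland, carried more RNA of collagens and other matrix genes in the acute library and more of resting-fibroblast genes at 6 weeks.
Of 28 matrix and myofibroblast genes, 19 were at least 2-fold lower at 6 weeks and 0 higher (median -2.01; 7.89% of all genes were lower).
Postn, a matrix protein of healing wounds, was 1879 CPM at 2 days and 77.9 at 6 weeks after caerulein, with 40.2 and 24.6 in the saline libraries (log2 ratio -4.59, interval -4.68 to -4.50).
Cthrc1, which marks activated fibroblasts, was 256 at 2 days and 4.52 at 6 weeks (saline 1.53 and 1.66). The thrombospondin Thbs4 was 463 at 2 days and 17.9 at 6 weeks (saline 2.03 and 3.42).
Each was highest in the acute library, and at 6 weeks each was still above both saline libraries.
The fibrillar collagen Col1a1 was 10596 at 2 days and 1473 at 6 weeks (saline 1156 and 1451). Col3a1 was 15278 at 2 days and 3301 at 6 weeks (saline 2591 and 3067), with the 6-week values near saline.
Acta2, the smooth muscle actin of myofibroblasts, was 201 at 2 days and 22.1 at 6 weeks (saline 16.8 and 12.9).
The basement membrane collagen Col4a1 was 573 at 2 days and 1138 at 6 weeks (saline 1141 and 1388), lowest in the acute library (log2 ratio 0.99, interval 0.95 to 1.03).
The log2 ratio of the thrombospondin Thbs1 was 0.87.
At 1000 UMIs, 66.7% of cells had a Postn UMI at 2 days and 4.56% at 6 weeks (saline 1.02% and 1.87%; T-like and B-like cells of the 2 caerulein libraries 0.862% and 0%).
For Cthrc1 it was 17.3% and 0.357%, and unthinned 60.8% and 4.10%.

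Of the resting-fibroblast list, 13 higher and 1 lower of 17 measured passed 2-fold, with a median of 1.64. Among all genes 5.7% were higher and 7.89% lower.
Gsn, an actin-severing protein, was 2469 CPM at 2 days and 25281 at 6 weeks after caerulein, with 25193 and 28545 in the saline libraries (log2 ratio 3.36, interval 3.34 to 3.37).
Pi16, a marker of adventitial fibroblasts, was 173 at 2 days and 889 at 6 weeks (saline 709 and 567). Clec3b was 404 at 2 days and 2589 at 6 weeks (saline 2128 and 2053). The matricellular Smoc2 was 427 at 2 days and 1287 at 6 weeks (saline 1244 and 1811).
The acute library was lowest for all 4 of these, and at 6 weeks Gsn lay within the saline range.
Hsd11b1, which regenerates active glucocorticoid, was 120.4 at 2 days and 606 at 6 weeks (saline 594 and 907).
Mfap5, a microfibril protein, was 2210.1 at 2 days and 1041 at 6 weeks (saline 784 and 684), the 1 member at least 2-fold lower.
Smoc2 was in 28.6% of cells at 2 days and 59.0% at 6 weeks at 1000 UMIs, and Pi16 in 11.4% and 23.5%.
Unthinned, Pi16 was in 53.7% and 47.0%, with the order turned and a deeper 2-day library.
Of the genes with the highest ratios, Ces1d, a carboxylesterase, was 6.76 at 2 days and 214 at 6 weeks (saline 252 and 286). The glutathione transferase Gsta3 was 2.48 at 2 days and 87.0 at 6 weeks (saline 81.3 and 156). Alkal2, a ligand of the ALK and LTK receptors, was 3.38 at 2 days and 137 at 6 weeks (saline 173 and 163). The adrenergic receptor Adra1b was 0.450 at 2 days and 16.7 at 6 weeks (saline 16.9 and 9.96).
The acute library was the lowest of the 4 for each.

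Of the TGF-beta pathway genes, through which fibroblasts are activated, 1 higher and 6 lower of 16 measured passed 2-fold, median -0.33. Of all genes 5.7% were higher and 7.89% lower.
Among the ligands, Tgfb3 was 214 at 2 days and 36.9 at 6 weeks (saline 26.2 and 25.5). Tgfb1 was 75.3 at 2 days and 24.7 at 6 weeks (saline 20.5 and 27.8). Tgfb2 was 69.2 at 2 days and 61.6 at 6 weeks (saline 61.8 and 61.9).
The receptors Tgfbr1 and Tgfbr2 had log2 ratios of -0.22 and -0.28.
Smad7, the inhibitor the pathway induces, was 156 at 2 days and 53.1 at 6 weeks (saline 67.9 and 51.8). The latency protein Ltbp1 was 38.8 at 2 days and 119.8 at 6 weeks (saline 133 and 136).
Tgfb1, Tgfb3 and Smad7 were thus high in the acute library alone, Ltbp1 was low in it, and Tgfb2 was level.
Genes of cholesterol synthesis and uptake had 10 higher and 0 lower of 15 measured, with a median of 1.79 (5.7% of all genes were higher).
Their median level was 5.63 CPM at 2 days and 21.2 at 6 weeks after caerulein, and 9.03 and 28.0 after saline, so the late saline library was higher as well.
The isomerase Idi1 was 1.43 at 2 days and 31.9 at 6 weeks (saline 14.5 and 40.2).
Saline at 6 weeks also exceeded saline at 2 days for Idi1.
Folding genes of the endoplasmic reticulum had a median of 0.65 (5 higher and 0 lower of 25 measured, against 5.7% of all genes higher). Their median level was 111 CPM at 2 days and 129 at 6 weeks (saline 101 and 135). The chaperone Hsp90b1 was 355 at 2 days and 883 at 6 weeks (saline 581 and 1039.5).

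Cytokines of fibroblast-like cells split in direction, with 10 higher and 8 lower of 23 measured (median 0.86). Of all genes 5.7% were higher and 7.89% lower.
The monocyte chemokine Ccl2 was 297 at 2 days and 961 at 6 weeks (saline 535 and 593). The neutrophil chemokine Cxcl1 was 860.1 at 2 days and 2865 at 6 weeks (saline 1566 and 1841). The prostaglandin synthase Ptgs2 was 153 at 2 days and 565 at 6 weeks (saline 381 and 449).
All 3 were highest at 6 weeks after caerulein, above either saline library.
Il6 was 509 at 2 days and 649 at 6 weeks (saline 428 and 336). The alarmin Il33 was 118 at 2 days and 122 at 6 weeks (saline 96.4 and 91.8), each within 2-fold after caerulein.
Saa3, an acute phase protein, was 0.676 at 2 days and 9.12 at 6 weeks (saline 3.05 and 0.683).
Of the genes that tissue dissociation is known to induce, 6 higher and 1 lower of 20 measured passed 2-fold, against the same shares of all genes.
The heat shock gene Hspa1b was 14.9 at 2 days and 111 at 6 weeks (saline 154 and 86.3). The RNA-binding Zfp36 was 611 at 2 days and 1771 at 6 weeks (saline 1677 and 1143); the part of dissociation in the cytokine values was not tested.
The 8 lower cytokines were Il1b, Il1a, Ccl4, Il1rn, Ccl3 and Tnf, which macrophages make in quantity, with Cxcl5 and Lif.
Of the 5 lowest genes of the class, Trem2, Ms4a7, Mmp9 and Wfdc17 are myeloid genes, with Trem2 at 27.5 and 0.156 CPM.
In all, 10 of 12 macrophage markers were at least 2-fold lower at 6 weeks (2518 and 904 summed).
Their part in these low ratios was not tested; with free RNA subtracted the ratio of Trem2 was -4.57.
Of 29 cell cycle genes 24 reached 20 UMIs, with a median level of 4.05 CPM at 2 days and 0.857 at 6 weeks. Members could pass through the 2-day library alone, so their count (2 higher and 18 lower) and median (-2.03) carry no weight.
After thinning to 1000 UMIs per cell that median was 0.00, and Mki67 or Top2a were in 1.19% and 0.179% of cells, below their share in T-like and B-like cells (3.45% and 2.12%).
At 2 days 535 of 589 cells lay in 1 cluster, and at 6 weeks 764 and 269 of 1121 lay in 2 others, with Smoc2 and Pi16 among their respective leading genes.

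**Figure D4:**
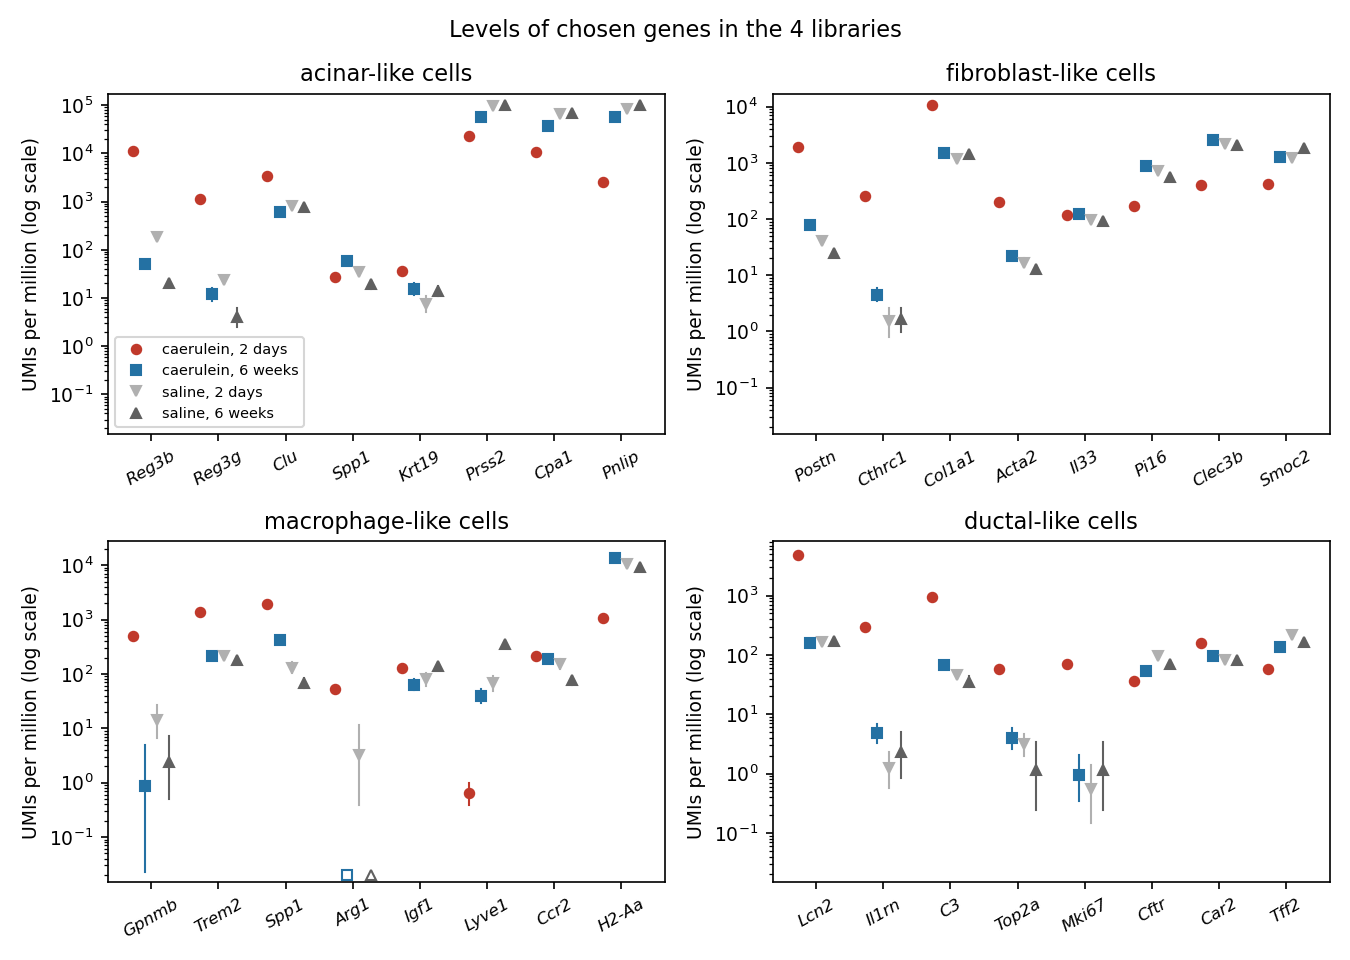
Levels of chosen genes in CPM on the TMM-adjusted class total, on a log axis, in acinar-like, fibroblast-like, macrophage-like and ductal-like cells of the 4 libraries; lines are exact 95% Poisson intervals and open symbols at the foot mark 0 UMIs. For Reg3b, Postn, Gpnmb and Lcn2 the 2-day caerulein library stood above the other 3, and for Pnlip, Pi16 and H2-Aa below them.

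Macrophage-like cells of the acute library carried more RNA of lipid-handling and lysosomal genes, and those of the late library more of antigen presentation genes.
Of 17 genes of the lipid-associated state, which macrophages adopt when they clear debris, 12 were at least 2-fold lower at 6 weeks and 2 higher (median -1.86; 14% of all genes lower).
Gpnmb, a lysosomal glycoprotein, was 497 CPM at 2 days and 0.884 at 6 weeks after caerulein, with 14.4 and 2.43 in the saline libraries, on 14847 and 1 UMIs (log2 ratio -9.13, interval -14.44 to -6.66).
The lipid receptor Trem2 was 1406 at 2 days and 217 at 6 weeks (saline 215 and 181). Spp1 was 1909.8 at 2 days and 426 at 6 weeks (saline 131 and 68.0). The lysosomal protease Ctsd was 7753 at 2 days and 784 at 6 weeks (saline 400.4 and 715). The fatty acid carrier Fabp5 was 1203 at 2 days and 68.1 at 6 weeks (saline 57.4 and 48.6).
Spp1 at 6 weeks remained above both saline libraries, and Trem2 was close to them.
Arg1, an enzyme of wound-type macrophages, had 1564 UMIs at 2 days and 0 at 6 weeks, at least 19.7-fold lower.
The scavenger receptor Cd36 and the lipase Lpl were the 2 higher members.
Cd36 was 43.3 at 2 days and 205 at 6 weeks (saline 195 and 471). Lpl was 30.6 at 2 days and 116 at 6 weeks (saline 175 and 117).
At 1000 UMIs a Gpnmb UMI was in 23.8% of cells at 2 days and 0 of 94 at 6 weeks (interval up to 3.85%), and Trem2 in 68.1% and 23.4%, with 1.72% and 0% in T-like and B-like cells.
Unthinned, Gpnmb was in 58.2% and 1.02%.

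All 10 measured genes of MHC class II, which shows peptides to helper T cells, were at least 2-fold higher at 6 weeks (median 3.57). Of all genes 6.6% were higher at a minimum of 100 UMIs, and 1655 of 11650 at the list minimum of 20.
H2-Aa, the alpha chain, was 1056 CPM at 2 days and 13835 at 6 weeks after caerulein, with 10495 and 9387 in the saline libraries (log2 ratio 3.71, interval 3.68 to 3.74).
The invariant chain Cd74 was 3034 at 2 days and 36622 at 6 weeks (saline 30190.1 and 23546). The master regulator Ciita was 9.24 at 2 days and 99.9 at 6 weeks (saline 115 and 53.4).
All 3 were lowest in the acute library; at 6 weeks H2-Aa and Cd74 were above both saline libraries and Ciita between them.
MHC class I genes had a median of 0.61 (5 higher and 0 lower of 16 measured, against 6.6% of all genes higher). Their median level was 87.0 CPM at 2 days and 188 at 6 weeks (saline 180 and 91.0), so the saline libraries differed as well.
H2-Q6 was 19.5 at 2 days and 115 at 6 weeks (saline 86.1 and 58.3), and H2-Q genes are close copies whose reads the counting may split.
Interferon response genes had a median of 0.68 (11 higher and 0 lower of 24 measured, against 6.6% of all genes higher). Their median level was 26.8 CPM at 2 days and 48.2 at 6 weeks (saline 51.0 and 25.9), so here too the saline libraries differed.
The chemokine Cxcl9 was 13.1 at 2 days and 73.4 at 6 weeks (saline 14.4 and 5.66).
The interferon median was -0.78 when the 2 caerulein libraries were clustered alone, which left 21 macrophage-like cells at 6 weeks.
The MHC class II median kept its sign in each of 14 alternatives (2.82 to 3.86), and the lipid-associated median in each of 14 (-2.20 to -1.36).

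Genes of resident scavenger macrophages did not share a direction (3 higher and 1 lower of 14 measured, median -0.40).
The hyaluronan receptor Lyve1 was 0.636 at 2 days and 39.8 at 6 weeks (saline 67.0 and 356). The haemoglobin scavenger receptor Cd163 was 9.24 at 2 days and 61.9 at 6 weeks (saline 139 and 295). Timd4, a receptor for dying cells, was 0.167 at 2 days and 3.54 at 6 weeks (saline 17.5 and 70.4).
These 3 were near 0 in the acute library and below saline at 6 weeks.
Retnla, a product of alternatively activated macrophages, was 0.268 at 2 days and 119 at 6 weeks (saline 3.19 and 1801), so the saline libraries differed as widely as the caerulein libraries.
The folate receptor Folr2 was 161 at 2 days and 124 at 6 weeks (saline 128 and 490.4). The mannose receptor Mrc1 was 302 at 2 days and 306 at 6 weeks (saline 456 and 782). The growth factor Igf1 was 126 at 2 days and 63.7 at 6 weeks (saline 79.8 and 139).
These 3 were within 2-fold of their acute level.
The monocyte chemokine receptor Ccr2 was 216 at 2 days and 187 at 6 weeks (saline 152 and 76.1) and stayed within 2-fold.
The monocyte gene Chil3 had 10872 UMIs at 2 days and 0 at 6 weeks, at least 137-fold lower.
Thbs1, an adhesive glycoprotein, was 893 at 2 days and 10.6 at 6 weeks (saline 9.57 and 42.1).
Of the cytokines, 8 of 23 were at least 2-fold lower and 2 higher, against 14% and 6.6% of all genes.
Il1b was 2796 at 2 days and 2016 at 6 weeks (saline 903 and 1715). Cxcl1 was 1035 at 2 days and 136 at 6 weeks (saline 159.5 and 1069.7), a gene that also differed between the saline libraries.
Cholesterol synthesis genes had a median of 1.59 (9 higher and 0 lower of 15 measured) on few UMIs, Idi1 having 60 and 17.

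Summed over the class, the CPM of 26 of the 29 cell cycle genes was 2-fold or more above the acute level at 6 weeks (median 1.98).
Top2a was 21.4 at 2 days and 160.1 at 6 weeks (saline 71.8 and 56.6). Mki67 was 93.6 at 2 days and 123 at 6 weeks (saline 134 and 70.4).
The share of cells with Mki67 or Top2a went the other way, 9.02% at 2 days and 5.32% at 6 weeks at 1000 UMIs (44.9% and 22.4% unthinned), so no order is read.
A cluster of dividing cells held 82 of the 2218 macrophage-like cells at 2 days and 9 of the 98 at 6 weeks, and those 9 had a median of 34055 UMIs.
Without that cluster and a shallow one the median was 0.18, and at Leiden resolution 0.5 it was -0.33.
At 2 days 1057 and 870 cells lay in 2 clusters, of which the 6-week library had 1 and 2 cells, and 69 of its 98 lay in a cluster that held 9 cells at 2 days.
The macrophage comparison is thus one between different clusters.
Scaling moved the median of all genes from -0.20 to -0.01 with DESeq2 size factors, and the higher and lower counts from 609 and 1292 to 857 and 922.

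Conventional dendritic-like cells (cDC1-like and cDC2-like together, merged after seeing the cell numbers) had MHC class II genes at like levels at both times and more RNA of 2 T cell chemokines at 6 weeks.
The MHC class II list had a median of -0.24 with 0 of 11 past 2-fold either way, and H2-Aa was 14441 at 2 days and 11926 at 6 weeks (saline 10153 and 13256).
Of 14 maturation genes 3 were at least 2-fold higher at 6 weeks. Of all genes 1.51% were higher at a minimum of 100 UMIs, and 345 of 9271 at the list minimum of 20.
Ccl17, which draws T cells, was 19.2 at 2 days and 286 at 6 weeks (saline 89.3 and 137). Ccl22, of the same receptor, was 55.1 at 2 days and 525 at 6 weeks (saline 244 and 259).
Both were lowest in the acute library and highest at 6 weeks after caerulein.
The actin-bundling Fscn1 was 20.6 at 2 days and 78.7 at 6 weeks (saline 175 and 18.5).
Ccr7, which guides dendritic cells to lymph nodes, was 378 at 2 days and 374 at 6 weeks (saline 667 and 662).
The interferon-induced Cxcl9 was 12.3 at 2 days and 161 at 6 weeks (saline 131 and 77.7).
The interferon list had 6 higher and 0 lower of 23 measured (median 0.47, and -0.30 at Leiden resolution 0.5).
Xcr1, which defines the cDC1 subset, was 32.6 at 2 days and 86.2 at 6 weeks (saline 109 and 53.6). The cDC2 gene Cd209a was 313 at 2 days and 245 at 6 weeks (saline 99.96 and 588).
The cDC1-like cells were 85 of 495 at 2 days and 16 of 63 at 6 weeks.
Retnla (0.158 and 107), Cxcl13 (0 and 97.4) and Lyz1 (7.28 and 377) led the higher genes, with 12 macrophage markers summing to 10837 and 11716. The part of macrophage RNA was not tested.
Higher and lower genes numbered 85 and 245, or 108 and 192 on unadjusted totals, where the median of all genes was 0.01 in place of -0.10.

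T-like cells at 6 weeks carried more RNA of genes of naive and recirculating T cells.
Of 10 such genes 7 were at least 2-fold higher and none lower (median 1.49; 1.8% of all genes higher).
The lymph node homing receptor Ccr7 was 94.5 CPM at 2 days and 435 at 6 weeks after caerulein, with 283 and 495 in the saline libraries (log2 ratio 2.20, interval 1.83 to 2.6). The transcription factor Lef1 was 73.3 at 2 days and 218 at 6 weeks (saline 148 and 204). Tcf7 was 119.8 at 2 days and 269 at 6 weeks (saline 229.9 and 231).
The acute library was lowest for each of these 3 genes.
Effector genes had no common direction (3 higher and 2 lower of 20 measured, median -0.19).
Interferon gamma (Ifng) was 272 at 2 days and 75.9 at 6 weeks (saline 159.8 and 241, log2 ratio -1.84, interval -2.23 to -1.47). The checkpoint receptor Lag3 was 5.64 at 2 days and 32.5 at 6 weeks (saline 23.6 and 22.9) on 4 and 36 UMIs.
The adhesion receptor Cd44 was 155 at 2 days and 75 at 6 weeks (saline 136 and 135).
Ifng was lowest at 6 weeks after caerulein, and its 2-day interval (235 to 313) overlapped that of 6-week saline (197 to 291). Lag3 was lowest in the acute library.
Intervals of the subset genes included 0: Cd4 had a log2 ratio of 0.46 (-0.05 to 0.99), Cd8a 0.01 (-0.44 to 0.48) and Foxp3, of regulatory T cells, -0.88 (-2.18 to 0.39).
At 1000 UMIs a Cd4 UMI was in 13.1% and 9.72% of cells and a Cd8a UMI in 6.06% and 7.64%, against 0.170% and 0% in 2-day fibroblast-like cells.
Of 29 cell cycle genes 21 reached 20 UMIs, and 9 of them were at least 2-fold lower (median -0.92). At that minimum 282 of 6633 genes were lower. Members could pass through the 2-day library alone (Ccnb2 had 34 UMIs at 2 days and 4 at 6 weeks), so this count and median carry no weight.
Mki67 or Top2a were in 4 of 99 T-like cells at 2 days (4.04%) and 5 of 144 at 6 weeks (3.47%) at 1000 UMIs, with overlapping intervals (unthinned 19.2% and 8.28%).
Birc5, a mitotic survival protein, was 84.6 at 2 days and 23.5 at 6 weeks (saline 43.4 and 32.1).

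In T-like cells the 12 macrophage markers summed to 2321 CPM at 2 days and 84.9 at 6 weeks, 11 of them at least 2-fold lower, and Lyz2 and Apoe were among the 5 lowest genes of the class.
Of 24 cytokine and NF-kB genes 10 reached 20 UMIs, and 6 of these were at least 2-fold lower, Il1b (111 and 0.903) among them. At that minimum 282 of 6633 genes were lower. Il1b (79 and 1 UMIs), Tnf (31 and 17) and Ptgs2 (34 and 4) could pass through the 2-day library alone, so the count carries no weight. The other lower genes, Cxcl2, Nfkbia and Icam1, had 93, 666 and 73 UMIs at 6 weeks. The part of macrophage RNA in the 6 lower genes was not tested.
Tff2, Spp1 and Krt8, genes of the epithelium, were among the 5 highest.
Tff2 was 7.05 and 108.
On unadjusted totals the counts were 30 higher and 67 lower genes in place of 40 and 48, with the median of all genes at -0.14 in place of -0.01.

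All 29 cell cycle genes were measured in ductal-like cells, with a median of -5.11, and in macrophage-like cells, where the median depended on the clusters included (1.98 as given, -0.33 at Leiden resolution 0.5).
AP-1 factors, which early stress and handling induce, had medians from -0.09 to 0.68, and glycolysis genes from -0.33 to -0.05; no class had more than 2 glycolysis genes at least 2-fold lower.
MHC class II differed between its classes, at 3.57 in macrophage-like, -0.24 in dendritic-like and 0.05 in ductal-like cells.
These differences between classes were not tested.

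**Figure D5:**
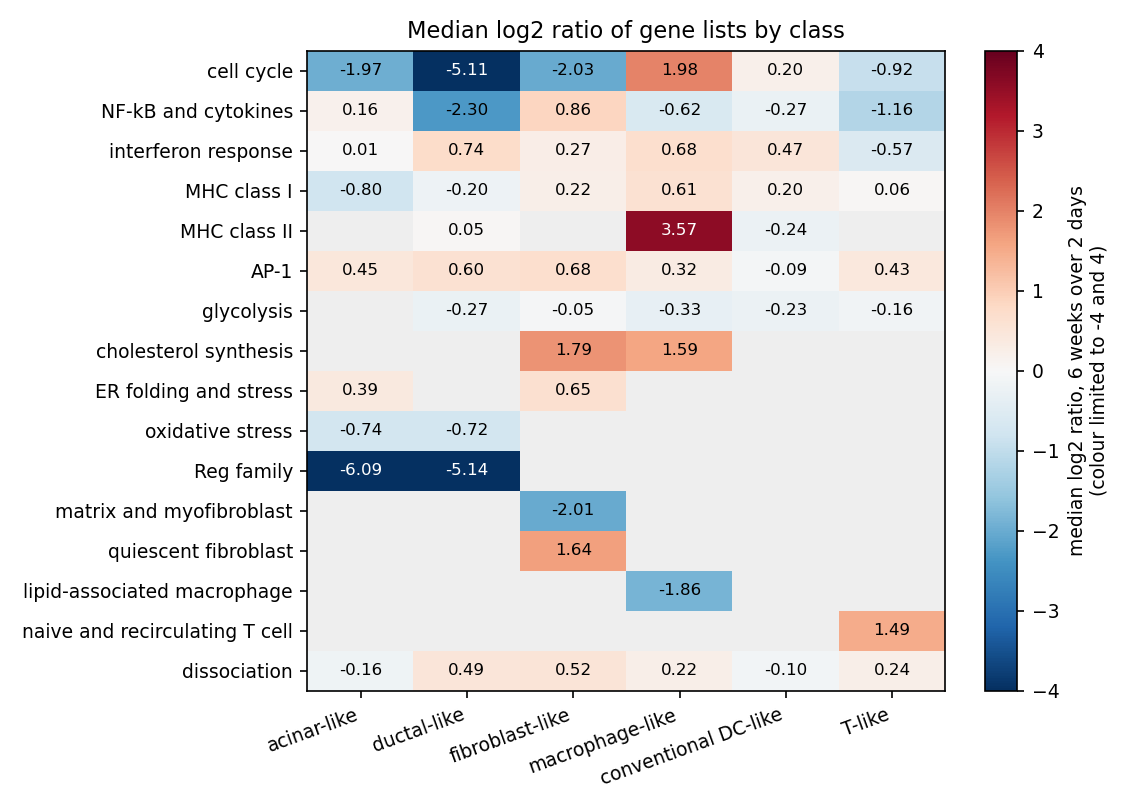
Median log2 ratio (6 weeks over 2 days after caerulein) of gene lists by class; red is higher at 6 weeks, blue lower, and grey a list that was not set for that class. The cell cycle medians of acinar-like, fibroblast-like, dendritic-like and T-like cells rest on the 13, 24, 17 and 21 of 29 genes that reached 20 UMIs, and that of fibroblast-like cells was 0.00 after thinning. Among them were -6.09 for the Reg family in acinar-like cells, -5.11 for cell cycle in ductal-like cells and 3.57 for MHC class II in macrophage-like cells.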

How the data were processed

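Cells of 4 pancreas libraries were profiled by droplet 3′ RNA sequencing. The authors deposited whole-number UMI counts per gene and barcode, made with Cell Ranger 3.0.2 on mm10 per the submitters' processing notes, which also name FastQC. Over all deposited barcodes the libraries held 71547194 (2 days) and 33788935 (6 weeks) UMIs after caerulein, and 36914373 and 29145886 after saline. From the counts, cells were clustered with scanpy 1.11.5 (2000 variable genes, 40 components, Leiden resolution 1), clusters were named from fixed marker lists, and UMIs were summed per class and library. TMM factors came from edgeR 4.0.16 (R 4.3.3) and alternative factors from DESeq2 1.42.0. Neither was used to test.

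A gene needed 100 UMIs over both libraries and a list member 20, and a library at 0 UMIs was given 3 counts over the class, which makes its ratio a bound. Named genes were the 5 highest and 5 lowest per class (without unnamed, sex-linked, ribosomal and mitochondrial genes), per list at most 4 members, those furthest from a ratio of 1, and a short set of genes per class. Outside this rule, Lef1 and Tcf7 in T-like cells, Clps, Gm5771, Gp2, Krt8, Krt18, Prss1, Reg1, Reg3d and Spink1 in acinar-like, Hmgb2, Pcna, Apoe, Icam1, Nfkbia and Vegfa in ductal-like, Col3a1, Col4a1, Cxcl1, Hsd11b1, Mfap5, Ptgs2, Saa3, Smad7, Tgfb1, Tgfb2, Tgfbr1, Tgfbr2 and Thbs1 in fibroblast-like, and Cd36, Cd74, Ciita, Lpl, Mki67 and Timd4 in macrophage-like cells were chosen after their values were seen. Members and lists were chosen with earlier results of these data known. Amy2b and Mx2 were not matched. Some genes within the naming rule are not reported here. Digestive genes were left out of the comparison outside acinar-like cells. Doublets were kept, as the member rule says; Scrublet marked 0.408% of kept barcodes in the 2-day library, too few to have worked there, so the highest scores were left out at an expected rate as an alternative. The cDC1-like and cDC2-like cells were merged after seeing their numbers. The ratio script was tested on simulated counts. Alternatives are scaling, UMI minimum, thinning, free RNA, cell filter, doublets and clustering.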

Additional observations from a re-analysis of the deposited data

Results flagged for a closer look

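Cell cycle genes had list medians of opposite sign in ductal-like and macrophage-like cells, and the macrophage sign did not hold in every setting. The median log2 ratio of 6 weeks over 2 days was -5.11 in ductal-like cells, over 29 genes with 27 at least 2-fold lower, and 1.98 in macrophage-like cells, over 29 genes with 26 at least 2-fold higher. Among all genes 5.06% were lower in ductal-like cells and 6.6% higher in macrophage-like cells. The difference between the classes was not tested, since each side is 1 library. The macrophage value was -0.33 at Leiden resolution 0.5 and 0.18 without the shallow and the dividing clusters. The share of macrophage-like cells with Mki67 or Top2a was 9.02% at 2 days and 5.32% at 6 weeks at 1000 UMIs, so no direction is read in that class, and 9 dividing-cluster cells at 6 weeks had a median of 34055 UMIs.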

How the results depend on the processing

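Of 364 named gene ratios, 318 kept their direction in every alternative run, as did 48 of 71 list medians. With 1 library a side no replicate could be left out, and no paired analysis was possible because each group had 1 sample. Class sizes set the depth: 98 macrophage-like and 63 conventional dendritic-like cells at 6 weeks limit those ratios.

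Shares moved with the denominator. Among immune cells they were macrophage-like 75.1% at 2 days and 14.7% at 6 weeks, conventional dendritic-like 16.8% at 2 days and 9.45% at 6 weeks, T-like 3.35% at 2 days and 21.7% at 6 weeks, B-like 35.1% at 6 weeks. Among non-immune cells they were ductal-like 10.4% at 2 days and 26.8% at 6 weeks, acinar-like 20.5% at 2 days and 16.7% at 6 weeks, mixed-cluster 24.8% at 2 days, fibroblast-like 34.6% at 2 days and 53.2% at 6 weeks, blood endothelial-like 6.4% at 2 days. Shares that moved with the clustering without digestive genes were macrophage-like 50.6% at 2 days and 4.33% at 6 weeks, conventional dendritic-like 7.20% at 2 days and 1.44% at 6 weeks. With the caerulein libraries clustered alone they were macrophage-like 41.8% at 2 days and 0.757% at 6 weeks, conventional dendritic-like 6.46% at 2 days and 1.37% at 6 weeks, B-like 0% at both times, since no cluster then took the B name, ductal-like 9.34% at 2 days and 13.3% at 6 weeks, acinar-like 11% at 2 days. At Leiden resolution 0.5 they were macrophage-like 50.2% at 2 days, conventional dendritic-like 7.97% at 2 days and 1.73% at 6 weeks, acinar-like 16.6% at 2 days.

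Counts of genes at least 2-fold higher or lower at 6 weeks moved with the number of genes admitted. With a minimum of 20 UMIs they were 544 higher and 1062 lower in acinar-like, 970 higher and 1000 lower in ductal-like, 981 higher and 1445 lower in fibroblast-like, 1655 higher in macrophage-like, 345 higher and 716 lower in conventional dendritic-like, 331 higher and 282 lower in T-like cells. With a minimum of 400 they were 73 higher and 136 lower in acinar-like, 142 higher and 172 lower in ductal-like, 327 higher and 436 lower in fibroblast-like, 224 higher and 792 lower in macrophage-like, 18 higher and 81 lower in conventional dendritic-like, 8 higher and 10 lower in T-like cells. With each cell thinned to 1000 UMIs, where fewer genes reach the minimum, they were 44 higher and 85 lower in acinar-like, 80 higher and 35 lower in ductal-like, 227 higher and 154 lower in fibroblast-like, 85 higher and 699 lower in macrophage-like, 2 higher and 93 lower in conventional dendritic-like, 2 higher and 3 lower in T-like cells. In acinar-like cells, unadjusted totals gave 48 higher and 1202 lower, class totals lacking the enzyme genes 265 higher and 161 lower, DESeq2 size factors 241 higher and 181 lower and the mixed cluster added (chosen after seeing the data) 464 higher and 1127 lower. Counts that moved with the caerulein libraries clustered alone were 638 lower in acinar-like, 805 lower in ductal-like, 2061 lower in macrophage-like, 90 lower in T-like cells. At resolution 0.5 they were 464 higher and 1127 lower in acinar-like, 387 lower in conventional dendritic-like, 104 lower in T-like cells. Without likely doublets the T-like count was 31 lower.

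Some log2 ratios turned, and the cause was not tested. With the caerulein libraries clustered alone these were Tff2 -0.66, Il6 -1.08, Ifit2 -0.43, Ifit1 -1.06, Ifit3 -1.28, Chil3 -0.96 (Tff2 in ductal-like, Chil3 in dendritic-like and the others in macrophage-like cells). At resolution 0.5 they were Ly6c2 1.41 and Slc16a3 0.057, Chil3 -3.70, Cenpf 0.27, Ube2c 0.27, C3 -2.12, Hspb1 -1.30 (Ly6c2 and Slc16a3 in macrophage-like and the others in dendritic-like cells), and the macrophage cell cycle median was -0.33. With thinning, Ly6c2 and Saa3 in macrophage-like cells were 0.96 and 0.82, and the fibroblast cell cycle median was 0.0043. Clustering without digestive genes gave Ly6c2 0.96, C3 -1.85 and Hspb1 -1.92 (Ly6c2 in macrophage-like, C3 and Hspb1 in dendritic-like cells). Cxcl2 in T-like cells was 3.29 with free RNA subtracted and 0.56 without likely doublets. Psmb9 in macrophage-like cells was -0.29 without the shallow and dividing clusters, a setting chosen after seeing the data.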

Other observations

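Genes of MHC class I had a median log2 ratio of -0.20 in ductal-like and 0.22 in fibroblast-like cells, and 1 of 16 fibroblast members was at least 2-fold higher at 6 weeks, a share near that of all genes (5.7%). In macrophage-like cells iron and haem genes had a median of -0.22 (2 higher and 4 lower of 11 measured), and monocyte genes 0.16 (3 higher and 3 lower of 12). Of all genes in that class 6.6% were higher and 14% lower. Smooth muscle contractile genes of fibroblast-like cells had 8 of 12 members at least 2-fold lower and a median of -1.21. Among all genes of fibroblast-like cells 7.89% were lower.

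Gkn3, a gastrokine of the stomach, had 453 UMIs in acinar-like cells at 2 days after caerulein and 0 in the other 3 libraries. Pgc, a stomach pepsinogen, had 347 UMIs in ductal-like cells at 6 weeks and 0 at 2 days. Their source was not tested. Saa3 in fibroblast-like cells was 9.12 CPM at 6 weeks after caerulein and between 0.676 and 3.05 in the other libraries.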
